A study of Mus musculus with 9 samples.

Results

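The comparison described here is the second interval of the first wave of spermatogenesis, testis at 24 days of age against testis at 16 days. It was made on the 3 arrays labelled 24 days and the 3 labelled 16 days, 6 of the 9 arrays in all. The mice were untreated males of a Swiss albino line, and the label gives the tissue as testis. The 3 arrays labelled 8 days, from the same line, entered the estimate of the spread and the comparison of this interval with the preceding one. The submitters call the 3 arrays of an age biological replicates, and how many animals stand behind an array was not stated. The titles number replicates 1 and 2, and the array with an unnumbered title is called replicate 3. The measurement covered 19935 genes, each with a log2 value relative to its own median over the 9 arrays, so that a value shows a difference between arrays and no level of expression. Blank cells were taken as 0, the median array.

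In the first wave of mouse spermatogenesis the germ cells of all tubules advance nearly together, so that age sets the most advanced stage present. Spermatogonia divide by mitosis, spermatocytes pair and recombine their chromosomes in meiosis, and the haploid products of the meiotic divisions, the spermatids, build an acrosome and a flagellum and pack their DNA with protamines. Sertoli cells nurse the germ cells inside the tubule, peritubular cells surround it, and Leydig cells outside it make androgens. Because whole testis was measured, fewer cells of a type and less RNA per cell cannot be told apart, and the same holds for more cells and more RNA per cell.

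Between 16 and 24 days the rises were large and the falls small. By limma with Benjamini-Hochberg adjustment over all genes, 2641 genes were higher at 24 days, 13.2% of those tested, and 4004 were lower, 20.1%. The median rise was 0.83 on the log2 scale and the median fall -0.45. At least 2-fold changes were found in 1072 genes that rose, 5.38% of all, and in 29 that fell. At least 4-fold, 349 genes rose, 1.75% of all, and 0 fell. Above these, 141 genes rose at least 8-fold, 25 at least 16-fold and 4 at least 32-fold. Every 24-day array lay above every 16-day array in 16.5% of genes and below in 39.1%. The median change of all genes was -0.16. When each array was centred on its own median, this became -0.08, the number of genes that fell dropped to 1927, and the share of calls that were rises went from 39.7% to 59.8%.

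**Figure D1:**
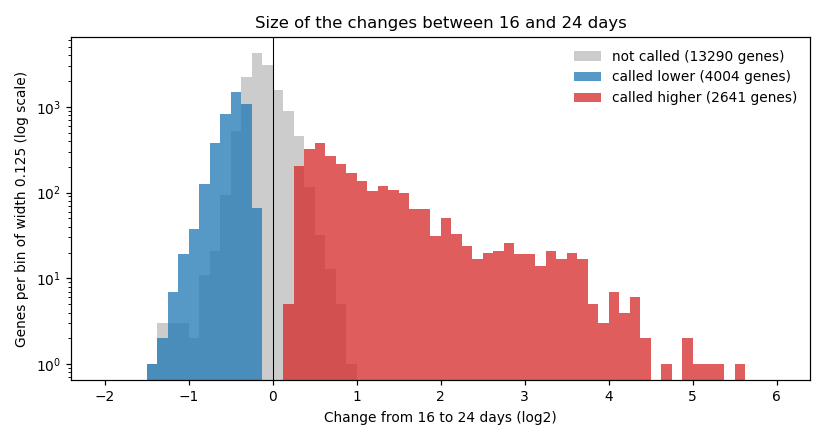
Number of genes (log axis) by change from 16 to 24 days (log2), for genes called higher, called lower or not called. The called rises reach 5.57, whereas the largest called fall is -1.48.

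Some arrays stood apart. The median of 1027 olfactory receptor genes (a family of odour sensors) reached 0.171 in replicate 2 of 16 days and 0.17 in the 8-day replicate 1, whereas the remaining arrays lay between -0.046 and 0.031. Without these 2 arrays 2943 genes were higher and 5755 lower. Replicate 2 of 16 days was also higher than the other 16-day arrays in genes of the axoneme, with a list median of 0.45 against 0.00 and -0.11, and without this array alone 2635 genes were higher and 4340 lower. The falls were sensitive to single arrays, with 2616 without replicate 3 of 16 days, 1672 without replicate 1 of 16 days and 1764 without replicate 1 of 24 days. Markers of tissues and blood cells that a dissection can carry along gave 2 rises and 4 falls. Of 22 epididymis genes 0 were higher and 3 lower (13.6%), and of 14 lymphocyte genes 0 and 1 (7.14%). Of 13 fat genes 1 was higher (7.69%) and 0 lower, and of 5 red cell genes 1 (20%) and 0. The shares of all genes were 13.2% higher and 20.1% lower. The medians of the 4 lists were -0.21, -0.24, -0.15 and -0.18.

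Genes that pack the sperm nucleus rose in this interval, with little movement before it (Prm1 changed by -0.09 ± 0.22 from 8 to 16 days). Prm1 (gene ID 19118, chromosome 16), a protamine that replaces histones, had values of -0.17, 0.00 and -0.21 in replicates 1, 2 and 3 of 16 days and of 5.44, 5.03 and 4.36 at 24 days. All 24-day arrays were far above all 16-day arrays, and replicate 3 was the lowest of the 24-day arrays. The change was 5.07 ± 0.22 (limma's moderated standard error here and below, 3 arrays per age), 33.6-fold, with an adjusted p of 6.60e-07. Prm2 (gene ID 19119, chromosome 16), the other main protamine, went from -0.17, 0.00 and -0.28 to 4.25, 3.57 and 2.66. Tnp1 (gene ID 21958, chromosome 1), a transition protein that sits on DNA between histones and protamines, went from 0.09, -0.06 and -0.12 to 3.58, 2.90 and 1.85, and its partner Tnp2 from -0.25, 0.00 and -0.52 to 4.15, 3.81 and 2.58. In each of these 3 genes, too, the 24-day arrays did not overlap the 16-day arrays and replicate 3 was the lowest of them. Their changes were 3.64 ± 0.31, 2.81 ± 0.33 and 3.77 ± 0.34.

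The whole list of spermatid chromatin genes was divided. Of 27 measured members 17 rose (63%) and 0 fell, and the median change was 0.55. For this list and every list below, the shares of all genes to compare with were 13.2% higher and 20.1% lower. Other large rises were those of Hmgb4, an HMG-box protein of germ cells, by 3.45 ± 0.24, H2bl1, a histone H2B variant of spermatids, by 2.87 ± 0.31, and Hils1, a spermatid linker histone, by 2.74 ± 0.19. Chd5, a chromatin remodeller of the histone-to-protamine exchange, rose by 1.43 ± 0.15 and Zmynd15, a repressor of spermatid genes, by 2.23 ± 0.24. Brdt, the bromodomain protein that reads acetylated histones, rose by 0.40 ± 0.08 in this interval and by 1.82 ± 0.08 in the preceding one. The testis linker histone H1f6 changed by 0.26 ± 0.15, which did not pass the test (adjusted p 0.186, and 0.0203 without the 2 arrays that stood apart in olfactory receptors), after a change of 2.45 ± 0.15 from 8 to 16 days. The 2 intervals share the 16-day arrays, which holds for every such pair of values below.

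**Figure D2:**
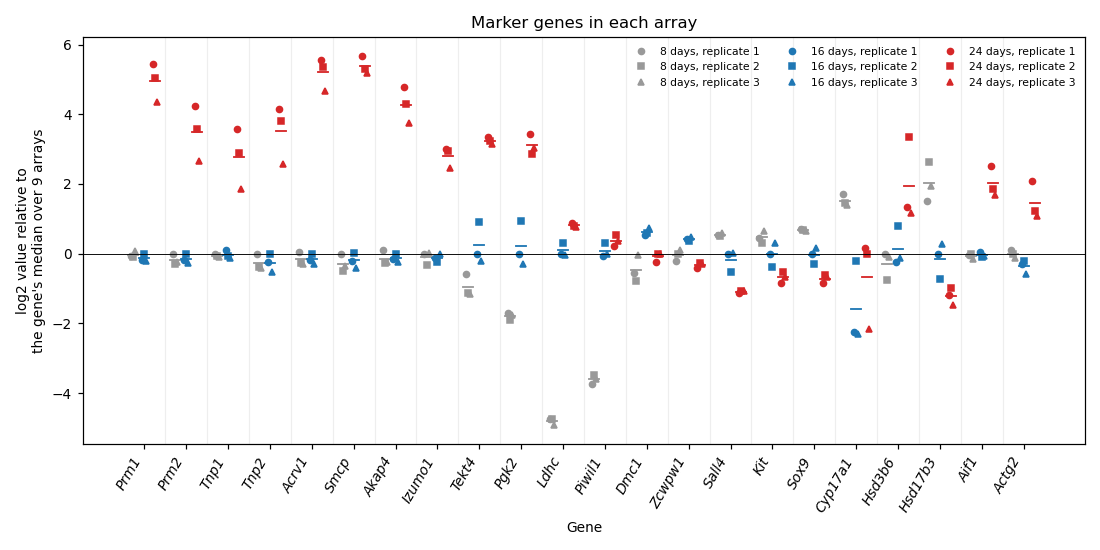
Log2 value of 22 genes relative to each gene's median over the 9 arrays, in each array of 8, 16 and 24 days, with horizontal lines at the means of 3 arrays. The 24-day arrays of Prm1 lie between 4.36 and 5.44 and those of Sall4 between -1.14 and -1.08.

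Genes of the acrosome, the enzyme-filled cap over the sperm nucleus, rose in nearly the whole list, 33 of 37 with a median of 1.51, and 1 fell. Acrv1 (gene ID 11451, chromosome 9), a protein of the acrosomal matrix, was at -0.17, 0.00 and -0.30 in the 16-day arrays and at 5.56, 5.37 and 4.67 in the 24-day arrays, which did not overlap. It rose by 5.36 ± 0.21, or 41.1-fold. Hyal5, a hyaluronidase of the sperm head, rose by 4.69 ± 0.22, Spaca7, released during the acrosome reaction, by 4.08 ± 0.20, the lysozyme-like Lyzl6 by 3.40 ± 0.23, and Spam1, a second hyaluronidase, by 3.38 ± 0.17. Spaca1, an inner membrane protein needed to shape the acrosome, rose by 3.06 ± 0.15. Acrosin, Acr, the serine protease of the acrosome, rose by 1.38 ± 0.17, less than the 2.89 ± 0.17 of the preceding interval. That difference between the intervals was -1.51 ± 0.29 (adjusted p 0.0146). The member that fell was Cpe, a carboxypeptidase of secretory granules in many cell types, by 0.74 ± 0.14.

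The cytoskeleton around the sperm head followed the same course. Of 23 members of this list 19 rose and 0 fell, with a median of 2.01. The capping protein Capza3, which ends actin filaments, was at -0.25, 0.00 and -0.29 at 16 days and at 3.74, 3.03 and 3.0 at 24 days, without overlap. It rose by 3.44 ± 0.20, Cylc2, a basic protein of the calyx behind the acrosome, by 3.37 ± 0.29 and the actin-related Actl7a by 2.63 ± 0.18. Calicin, Ccin, rose by 2.22 ± 0.26. Plcz1, the phospholipase that starts calcium waves in the egg, rose by 3.57 ± 0.19, from -0.02, 0.00 and -0.13 to 4.03, 3.30 and 3.21.

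Of 34 genes of sperm-egg recognition and of the chaperones that prepare those proteins, 28 rose and 1 fell, with a median of 1.49. Izumo1, the sperm protein that binds the egg receptor, was at -0.12, -0.24 and -0.02 at 16 days and at 3.01, 2.94 and 2.45 at 24 days. The arrays of both ages did not overlap, and the rise was 2.93 ± 0.16. Llcfc1, also needed for fusion, rose by 4.93 ± 0.19, the testis disulphide isomerase Pdilt by 3.64 ± 0.20, and the paired membrane proteins Dcst1 and Dcst2 by 2.62 ± 0.22 and 2.13 ± 0.16. Some members behaved otherwise. The metalloprotease-like Adam2 and Adam3 rose by 0.91 ± 0.18 and 1.62 ± 0.32 after rises of 4.60 ± 0.18 and 3.97 ± 0.32 from 8 to 16 days. Tex101, a germ cell membrane protein that helps Adam3 to mature, and its partner Ly6k changed by -0.10 ± 0.11 and -0.13 ± 0.14 and did not pass the test (adjusted p 0.489 and 0.478), after 1.75 ± 0.11 and 1.59 ± 0.14.

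In the tail, nearly all genes of the axoneme and of the structures around it rose. Of 30 genes of the fibrous sheath and outer dense fibres, which stiffen the flagellum, 28 rose and 0 fell (median 1.55, after 0.13 from 8 to 16 days). Of 62 axoneme genes 60 rose and 0 fell (median 1.28, after 1.68). The second interval was above the first in 15 of 30 sheath and fibre genes and below it in 6, by the test of the difference between the intervals, against 3.06% and 2.31% of all genes. In the axoneme list it was above in 6 of 62 and below in 19. Akap4 (gene ID 11643, chromosome X), the main sheath protein, was at -0.14, 0.00 and -0.23 at 16 days and at 4.77, 4.29 and 3.75 at 24 days, a rise of 4.39 ± 0.22 without overlap. The sheath and fibre proteins Cabyr, Ropn1, Txndc2 and Odf1 rose by 4.23 ± 0.14, 3.95 ± 0.18, 3.78 ± 0.20 and 3.53 ± 0.13. Odf2, the fibre protein that is also a part of centrioles, rose by 1.31 ± 0.16 after 1.51 ± 0.16.

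Within the axoneme, the filament proteins of the microtubule wall and the dynein motors spread widely. The tektin Tekt4 was at 0.00, 0.92 and -0.21 at 16 days, with replicate 2 the highest, and at 3.34, 3.24 and 3.14 at 24 days. It rose by 3.01 ± 0.26 and Tekt2 by 2.64 ± 0.17. Nme8, a thioredoxin-domain protein of the dynein arms, rose by 3.25 ± 0.35 and the inner-arm heavy chain Dnah3 by 2.84 ± 0.19. The radial spoke protein Rsph1 rose by 0.65 ± 0.12 after 3.72 ± 0.12, a difference between the intervals of -3.07 ± 0.20 (adjusted p 3.34e-05). Rsph4a, the radial spoke protein of motile cilia, changed by -0.12 ± 0.09 and did not pass the test (adjusted p 0.333). By symbol, 28 of 31 Cfap genes, 12 of 15 Dnah genes and 10 of 12 tubulin-modifying Ttll genes rose.

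The neck and the manchette, a skirt of microtubules that shapes the nucleus, gave 36 rises and 1 fall among 49 genes (median 0.90). Sun5 and Pmfbp1, which hold the sperm head to the tail, rose by 3.91 ± 0.17 and 3.51 ± 0.25. Sun5 went from -0.19, 0.00 and -0.36 at 16 days to 3.98, 3.80 and 3.42 at 24 days without overlap. Sun3, which links the manchette to the nuclear envelope, rose by 2.28 ± 0.18 and Deup1, of centriole formation, by 2.62 ± 0.25.

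**Figure D3:**
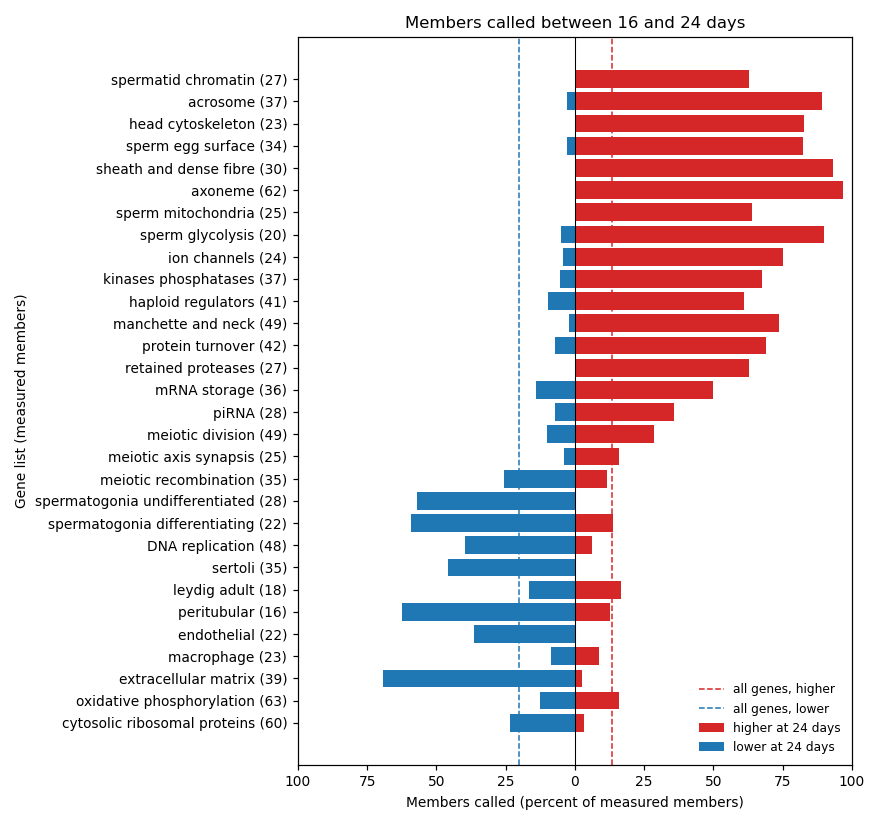
Percent of the measured members of each gene list that were called higher (red, to the right) or lower (blue, to the left) at 24 days than at 16 days, with dashed lines at 13.2% and 20.1%, the shares of all genes. Lists of sperm structures lie mostly to the right, and spermatogonial, Sertoli and matrix lists to the left.

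The energy supply of the tail was divided between the mitochondrial sheath and the sheath-bound glycolytic enzymes. Smcp (gene ID 17235, chromosome 3), of the mitochondrial capsule, had the largest rise of all genes. It was at -0.20, 0.03 and -0.41 at 16 days and at 5.68, 5.29 and 5.17 at 24 days, and rose by 5.57 ± 0.17, or 47.6-fold (adjusted p 2.71e-07). The mitochondrial adhesion protein Spata19 rose by 4.35 ± 0.17, and Tbc1d21 and Armc12, which arrange mitochondria around the tail, by 3.30 ± 0.23 and 2.93 ± 0.25. In the list as a whole, 16 of 25 rose and 0 fell, with a median of 0.69. Of 20 glycolysis genes 18 rose and 1 fell, with a median of 1.15. Gapdhs, the sperm form of glyceraldehyde phosphate dehydrogenase, rose by 4.18 ± 0.22 after 0.05 ± 0.22, and the autosomal phosphoglycerate kinase Pgk2 by 2.90 ± 0.27 after 2.0 ± 0.27. Ldhc, the germ cell lactate dehydrogenase, rose by 0.72 ± 0.11 after 4.90 ± 0.11. The transporter Slc16a7, which carries lactate and pyruvate, rose by 2.06 ± 0.23, and Pkm, the pyruvate kinase of most tissues, fell by 0.36 ± 0.08 (adjusted p 0.00626, and 0.0650 with blank cells left missing). Of 63 genes of the common respiratory chain and ATP synthase, 10 rose (15.9%) and 8 fell (12.7%) with a median of 0.07, against 13.2% and 20.1% of all genes. Of 60 genes of cytosolic ribosomal proteins, taken by symbol, 2 rose (3.33%) and 14 fell (23.3%) with a median of -0.12.

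Channels, transporters and kinases of sperm made up the next groups. Of 24 ion channel and transporter genes 18 rose and 1 fell, with a median of 1.79. All 7 Catsper genes, which encode the calcium channel of the tail and its partners, rose. Catsper3 was at -0.04, -0.07 and -0.19 at 16 days and at 3.52, 2.95 and 2.43 at 24 days, a rise of 3.07 ± 0.22 without overlap, and Catsper1 rose by 2.54 ± 0.20. The sperm potassium channel Kcnu1 rose by 3.41 ± 0.14, the carrier Slc22a14 by 3.69 ± 0.22, the sodium pump subunit Atp1a4 by 3.06 ± 0.27 and the bicarbonate-sensing adenylate cyclase Adcy10 by 2.65 ± 0.19. The member that fell was the proton channel Hvcn1, which white cells also use, by 0.45 ± 0.08 (adjusted p 0.00292, and 0.0538 with blank cells left missing). Of 37 kinase and phosphatase genes 25 rose and 2 fell (median 0.70), and 5 of 6 Tssk genes, kinases named for the testis, rose. Tssk1 and Tssk2 rose by 2.81 ± 0.21 and 2.60 ± 0.21, and the phosphatase regulator Ppp1r32 by 2.81 ± 0.13.

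Regulators of haploid transcription included rises and falls. Of 41 listed regulators 25 rose and 4 fell, with a median of 0.57. Stat4 (gene ID 20849, chromosome 1), a STAT factor known from lymphocytes, was at -0.15, 0.00 and -0.27 at 16 days and at 5.43, 4.91 and 4.64 at 24 days, and rose 35.1-fold. Of the 14 lymphocyte genes above 0 rose, against 13.2% of all genes, and 1 fell, 7.14% against 20.1%. Which cells the Stat4 rise came from was not tested. Spz1, a helix-loop-helix factor of the testis, went from -0.24, 0.00 and -0.14 to 4.77, 4.02 and 4.08 and rose by 4.42 ± 0.19. Fhl5, the LIM-domain partner of Crem, rose by 3.62 ± 0.21 and the heat shock factor Hsfy2 by 3.37 ± 0.27. Some regulators rose in both intervals. Crem, a cAMP-responsive activator, rose by 1.13 ± 0.20 after 1.66 ± 0.20, Rfx2, which binds X boxes, by 0.81 ± 0.13 after 1.90 ± 0.13, and Sox30, an HMG-box factor, by 0.72 ± 0.10 after 2.33 ± 0.10. The pachytene regulator Mybl1 changed by 0.21 ± 0.23, which did not pass the test, after 2.18 ± 0.23.

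In the lists of mRNA storage, protein turnover and proteases, rises outnumbered falls. Of 36 genes of mRNA storage and translational control 18 rose and 5 fell (median 0.31, after 0.81). The poly(A) polymerase Papolb rose by 1.70 ± 0.19 and Tdrd6, a tudor protein of the chromatoid body, by 1.51 ± 0.23, while Cpeb1, which binds cytoplasmic polyadenylation elements, fell by 0.56 ± 0.13. Of 42 genes of protein turnover 29 rose and 3 fell (median 1.00), with Klhl10 and Asb17, substrate adaptors of ubiquitin ligases, rising by 3.07 ± 0.23 and 3.07 ± 0.26. Of 27 testis proteases and inhibitors 17 rose and 0 fell (median 1.36), among them Prss54 by 3.20 ± 0.18 and Prss37 by 2.82 ± 0.33. Further large rises outside the lists were those of the allantoicase gene Allc by 4.89 ± 0.23, Fam71e2 by 4.33 ± 0.14 and the glutathione transferase Gstt4 by 4.29 ± 0.21. Genes with clone or model names made up 22.1% of the genes that rose at least 4-fold, 77 of 349, against 6.65% of all genes and 2.57% of those that fell.

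Promoter sequences were set beside these changes, since many genes rose in the same interval. The windows are RefSeq's, from 250 bases before to 50 after each gene's start on GRCm38.p6, and 15561 of the 19935 genes had at least 1. The motifs, searched on both strands and chosen after the changes were known, were GTTGCCA, one arm of an X box as bound by RFX factors, GTTGCCATGG, a 10-base X box made of that arm and the first 3 bases of its reverse complement, CCATTGT, which reads ACAATGG on the other strand and is of the type that SOX factors bind, TGACGTCA (a cAMP response element), CAACTG (MYB type), TATAAA and GGGCGG (GC box). A match is a description of the letters and no sign of binding. The following stretches are the 80 bases before the start of 4 genes with a SOX-type match and 4 with an X box, with the match in capitals, shown because these motifs were in a larger share of genes that rose at least 2-fold than of genes not called.
Acrv1 (chr9:36693140-36693219, plus strand): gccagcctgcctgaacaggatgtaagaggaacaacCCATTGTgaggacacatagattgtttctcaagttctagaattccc
Spz1 (chr13:92576233-92576312, minus strand): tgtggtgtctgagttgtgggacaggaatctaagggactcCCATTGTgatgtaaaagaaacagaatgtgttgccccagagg
Slc22a14 (chr9:119190396-119190475, minus strand): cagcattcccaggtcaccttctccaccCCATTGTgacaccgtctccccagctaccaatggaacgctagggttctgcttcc
Tnp1 (chr1:73015900-73015979, minus strand): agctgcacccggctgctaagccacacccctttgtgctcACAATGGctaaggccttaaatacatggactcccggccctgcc
Ttc23l (chr15:10558669-10558748, minus strand): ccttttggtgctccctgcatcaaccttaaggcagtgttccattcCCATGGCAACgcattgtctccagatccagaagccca
Apobec4 (chr1:152750471-152750550, plus strand): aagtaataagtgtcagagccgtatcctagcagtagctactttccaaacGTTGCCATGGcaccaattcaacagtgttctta
Best1 (chr19:10001634-10001713, minus strand): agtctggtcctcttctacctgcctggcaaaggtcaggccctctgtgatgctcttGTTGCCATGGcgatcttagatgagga
Fndc11 (chr2:181219954-181220033, plus strand): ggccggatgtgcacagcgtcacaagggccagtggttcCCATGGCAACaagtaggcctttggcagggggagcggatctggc

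In these windows the SOX-type match of Acrv1 spans positions -45 to -39 from the start, that of Spz1 -41 to -35 and that of Tnp1 -42 to -36, where -1 is the base before the start. The X box of Apobec4 spans -32 to -23 and that of Best1 -26 to -17. The X-box genes shown rose by 3.66 ± 0.19 (Ttc23l), 3.34 ± 0.21 (Apobec4), 2.85 ± 0.18 (Best1, a chloride channel) and 2.07 ± 0.20 (Fndc11). Of all genes with a window 4.70% held the X-box arm, 0.611% the 10-base X box and 3.35% the SOX-type motif. By class, the arm was held by 11.3% of the 282 genes that rose at least 4-fold, 12.9% of the 568 that rose 2-fold to 4-fold, 7.67% of the 1291 that rose less, 4.18% of those not called and 3.13% of those that fell. The 10-base X box was held by 3.90%, 2.64%, 1.24%, 0.467% and 0.160% of the same classes, and the SOX-type motif by 10.6%, 6.16%, 3.25%, 3.23% and 2.62%. The SOX-type motif between -60 and -21 was found in 14 of the 282 genes that rose at least 4-fold, 4.96%. Acrv1, Spz1 and Tnp1, shown above, are among the 14. It was in 0.311% of genes not called and in 0.479% of those that fell. In the same stretch the X-box arm was in 3.19%, 0.661% and 0.447% of these classes.

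Base composition also differed between the same classes, and its part in these shares was not tested apart from the values below. The median GC content of the windows was 51.0% in genes that rose at least 4-fold, 54.7% and 59.7% in the classes that rose less, 56.0% in genes not called and 62.5% in genes that fell, and the GC box was held by 22.0%, 39.8%, 61.2%, 47.2% and 74.0% of them. Within windows of 50% to 60% GC, the SOX-type motif was in 13.2% of the genes that rose at least 4-fold, 3.10% of those not called and 2.97% of those that fell, and the X-box arm in 14.0%, 5.17% and 3.74%. Within 40% to 50% GC, the SOX-type motif was in 9.71%, 4.61% and 5.07% of these classes and the X-box arm in 10.7%, 3.85% and 3.99%. The cAMP response element was in 4 genes that rose at least 4-fold, 1.42%, in 3.52% and 3.80% of the classes that rose less and in 2.72% of all. TATAAA was in 9.57%, 12.5% and 8.37% of the 3 rising classes against 13.6% of all, and CAACTG in 17%, 22.5% and 15.5% against 13.8%. No match says only that these letters were not in the window. Neighbouring windows of a gene pair that share a promoter were not separated.

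**Figure D4:**
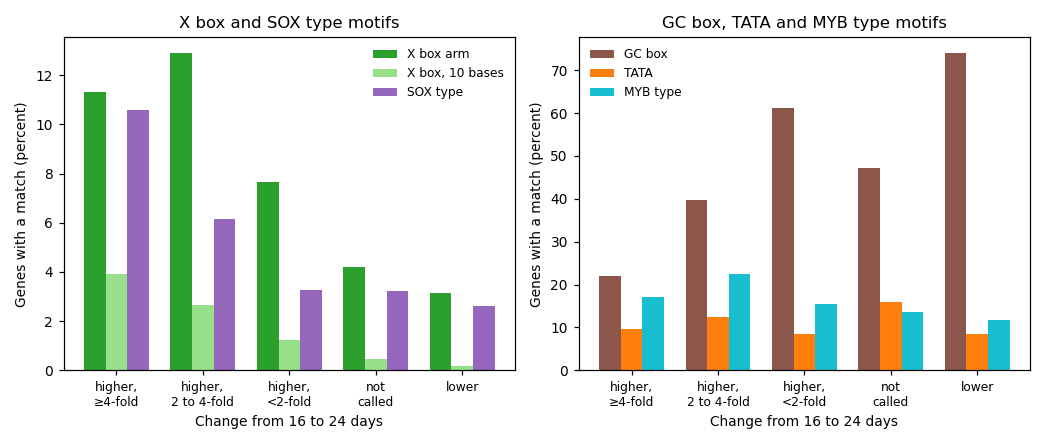
Percent of genes with a motif match in a RefSeq promoter window, by change from 16 to 24 days. The 10-base X box falls from 3.90% of genes that rose at least 4-fold to 0.160% of genes that fell, and the GC box is in 22.0% of the former and 74.0% of the latter.

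Genes of synapsis and recombination gave rises and falls. The shares called in the recombination list and the share of rises in the synapsis list lay near those of all genes. Of 25 genes of the chromosome axis and synapsis 4 rose (16%, against 13.2% of all genes) and 1 fell (4%, against 20.1%). The median was -0.02 after 1.10 from 8 to 16 days. The second interval was below the first in 11 of the 25, against 2.31% of all genes. Of 35 recombination genes 4 rose (11.4%, against 13.2% of all genes) and 9 fell (25.7%, against 20.1%), with a median of -0.23 after 0.65, and the second interval was below the first in 18. Zcwpw1, a reader of the histone marks that place recombination, was at 0.41, 0.35 and 0.47 at 16 days and at -0.42, -0.26 and -0.30 at 24 days, lower without overlap, and fell by 0.74 ± 0.10 (adjusted p 6.00e-04). The damage kinase gene Atm fell by 0.83 ± 0.15. Dmc1, the meiotic strand-exchange protein, fell by 0.70 ± 0.17, and its adjusted p of 0.0130 became 0.0563 without replicate 1 of 24 days. Mei1, needed for double-strand breaks, fell by 0.65 ± 0.15, while Syce1, of the synaptonemal complex, rose by 0.73 ± 0.12. Spo11, which makes the breaks, changed by 0.22 ± 0.17 and did not pass the test (adjusted p 0.312).

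The regulators of the meiotic divisions included rises and falls. Of 49 genes of the divisions 14 rose (28.6%, against 13.2% of all genes) and 5 fell (10.2%, against 20.1%), with a median of 0.16. The meiotic cyclin Ccna1 was at 0.00, 0.80 and -0.51 at 16 days and at 2.45, 2.11 and 2.39 at 24 days, and rose by 2.22 ± 0.27, whereas Ccna2, the A-type cyclin of mitotic cells, fell by 0.72 ± 0.15. Plk1, a kinase of entry into division, was at -0.61, -0.56 and -0.46 and then at 0.76, 0.19 and 0.45, and rose by 1.01 ± 0.14. Aurka, a spindle kinase, rose by 0.84 ± 0.14, and Ccnb3, a cyclin of early meiosis, fell by 0.71 ± 0.17.

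In the piRNA pathway, which silences transposons through PIWI proteins and small RNAs, 10 of 28 genes rose and 2 fell (median 0.20 after 0.79). These shares were 35.7% and 7.14%, against 13.2% and 20.1% of all genes. The large rises were those of the gametocyte-specific factors. Gtsf2 was at 0.00, 0.20 and -0.34 at 16 days and at 4.06, 3.75 and 3.38 at 24 days, a rise of 3.77 ± 0.18 without overlap, and Gtsf1l rose by 2.36 ± 0.17. Piwil1, the PIWI protein of pachytene cells, changed by 0.29 ± 0.13 after 3.69 ± 0.13 and did not pass the test (adjusted p 0.105, and 0.0257 without replicate 2 of 16 days). Piwil4 and Mov10l1, a PIWI protein of early germ cells and the helicase that prepares piRNA precursors, fell by 0.69 ± 0.10 and 0.46 ± 0.10.

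Many genes of spermatogonia fell. In the undifferentiated list 16 of 28 genes fell (57.1%, against 20.1% of all genes), with 0 rises and a median of -0.47. With centred arrays 14 of the 28 fell, against 1927 of all 19935 genes. Sall4 (gene ID 99377, chromosome 2), a stem cell zinc finger protein, was at 0.00, -0.54 and 0.01 at 16 days and at -1.14, -1.08 and -1.08 at 24 days, without overlap, and fell by 0.92 ± 0.14. Ret, the receptor for GDNF, fell by 0.91 ± 0.17, Zbtb16 by 0.86 ± 0.19 and the RNA-binding protein Lin28a by 0.84 ± 0.08. In the list for differentiating cells 13 of 22 genes fell (59.1%) and 3 rose (13.6%, against 13.2% of all genes), with a median of -0.54. Crabp1, a retinoic acid-binding protein, fell by 1.08 ± 0.15, Stra8, which retinoic acid induces before meiosis, by 0.80 ± 0.19, and Kit, the receptor of differentiating cells, by 0.66 ± 0.17. The adjusted p of Kit, 0.0146, became 0.0519 without replicate 1 of 16 days and 0.0622 without replicate 1 of 24 days. The largest of the 3 rises was that of Tex13a on chromosome X, by 1.73 ± 0.21, from -0.26, 0.00 and -0.29 to 1.96, 1.31 and 1.37. Of 48 DNA replication genes 19 fell (39.6%) and 3 rose (6.25%), with a median of -0.31. With centred arrays 9 of the 48 fell, a larger share than the 1927 of all 19935 genes. Of 12 Mcm genes, most of which encode the replication helicase, 9 fell. Mcm2 fell by 0.83 ± 0.12.

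**Figure D5:**
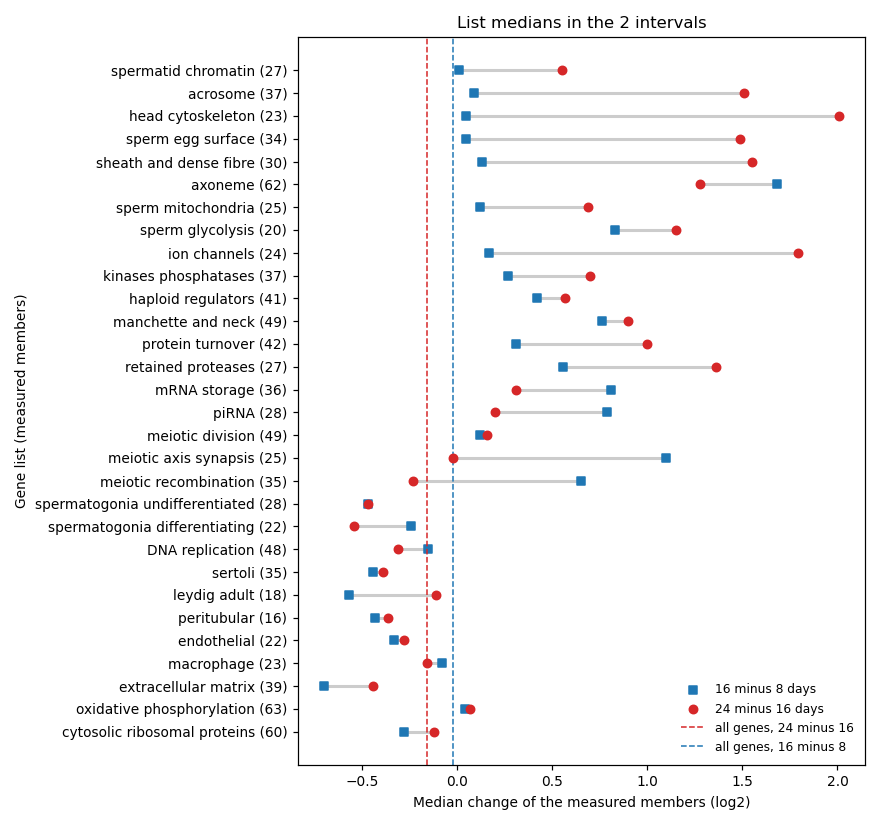
Median change of the measured members of each list from 8 to 16 days (blue squares) and from 16 to 24 days (red circles), with dashed lines at the medians of all genes, -0.02 and -0.16. The medians of meiotic axis genes go from 1.10 to -0.02 and those of acrosome genes from 0.09 to 1.51.

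The lists of somatic cells and matrix gave more falls than rises in most cases, and in most of them fewer than 1 in 2 members passed the test. Among all genes, too, more fell (20.1%) than rose (13.2%), and the median was -0.16. With centred arrays 1927 of all 19935 genes fell. Of 35 Sertoli cell genes 16 fell (45.7%) and 0 rose (median -0.39). This count became 10 with centred arrays, 8 without replicate 1 of 16 days, 10 without replicate 3 of 16 days, 8 without replicate 1 of 24 days and 28 without the 2 arrays that stood apart in olfactory receptors. Sox9, the Sertoli cell fate factor, was at 0.00, -0.31 and 0.16 at 16 days and at -0.85, -0.62 and -0.68 at 24 days, without overlap, and fell by 0.66 ± 0.12. Amh, the hormone of immature Sertoli cells, changed by -0.65 ± 0.25, which did not pass the test (adjusted p 0.0726), after -1.71 ± 0.25. It passed without replicate 2 of 8 days (adjusted p 0.00732). Of 22 endothelial genes 8 fell (36.4%) and 0 rose (median -0.28), or 5 fell with centred arrays. Erg, an endothelial transcription factor, fell by 0.67 ± 0.09. Of 39 extracellular matrix genes 27 fell (69.2%) and 1 rose (2.56%), with a median of -0.44. With centred arrays 20 fell, without replicate 1 of 16 days 16 and without replicate 1 of 24 days 17. Fibronectin, Fn1, fell by 0.96 ± 0.18 and the laminin chain Lama2 by 0.87 ± 0.15. The rise was that of periostin, Postn, by 0.65 ± 0.15 after -1.40 ± 0.15, from -0.57, -0.74 and -0.45 to 0.00, 0.24 and -0.06.

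Both the list of muscle-like peritubular cells and that of macrophages held 2 rises. Of 16 peritubular genes 10 fell (62.5%) and 2 rose (12.5%), against 20.1% and 13.2% of all genes. The median was -0.36, and 4 of the 16 fell with centred arrays, against 1927 of all 19935 genes. Smooth muscle actin, Acta2, fell by 0.61 ± 0.11, while Actg2, the other smooth muscle actin, rose by 1.82 ± 0.23, from -0.29, -0.20 and -0.58 to 2.08, 1.22 and 1.08, without overlap. Of 23 macrophage genes 2 rose (8.7%) and 2 fell (8.7%), below the 13.2% and 20.1% of all genes. The median of -0.16 was that of all genes. Aif1, an actin-binding protein used as a macrophage marker, rose by 2.06 ± 0.18, from 0.06, -0.11 and -0.07 to 2.52, 1.85 and 1.69, while the other member that rose was a class II gene. That gene, H2-Ab1, rose by 1.09 ± 0.21.

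Of 18 adult Leydig cell genes 3 rose (16.7%) and 3 fell (16.7%), near the 13.2% and 20.1% of all genes. The median was -0.11 after -0.57. Hsd3b6, the hydroxysteroid dehydrogenase of adult Leydig cells, was at -0.24, 0.78 and -0.12 at 16 days and at 1.33, 3.36 and 1.16 at 24 days, with replicate 2 the highest at both ages. It rose by 1.81 ± 0.52 (adjusted p 0.0249), and the adjusted p became 0.0883 without replicate 1 and 0.0672 without replicate 3 of 16 days. Hsd17b3, which completes testosterone synthesis, fell by 1.07 ± 0.30 (adjusted p 0.0234), and its adjusted p lay between 0.0543 and 0.0797 with centred arrays, with blank cells left missing or without replicate 1 or 3 of either age. Cyp17a1, which makes androgen precursors, was at -2.25, -0.20 and -2.32 at 16 days and at 0.15, 0.00 and -2.17 at 24 days. Its arrays of both ages overlapped, and the change of 0.92 ± 0.66 did not pass the test (adjusted p 0.282). Of 7 fetal Leydig genes 3 fell (42.9%) and 0 rose (median -0.39).

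Among the largest falls of all genes, the first belongs to the fetal Leydig list. Dlk1 (gene ID 13386, chromosome 12), an imprinted gene that fetal Leydig cells also express, was at 0.37, -0.25 and 0.00 at 16 days and at -1.96, -1.25 and -1.13 at 24 days, and fell by 1.48 ± 0.21, a ratio of 0.358. Rasgrp1, an activator of Ras, fell by 1.25 ± 0.22, from 0.62, 0.07 and 0.91 to -0.76, -1.02 and -0.38, without overlap. The imprinted zinc finger gene Zim1 fell by 1.21 ± 0.23, Foxf1, a mesenchymal transcription factor, by 1.19 ± 0.23, the Rab and Ras effector Rin2 by 1.13 ± 0.19 and the matrix protein Tgfbi by 1.12 ± 0.23. By symbol, 19 of 46 Col genes fell (41.3%) and 0 rose, against 20.1% and 13.2% of all genes. Of 300 microRNA genes, also taken by symbol, 40 fell (13.3%) and 2 rose (0.667%). Of 22 immediate early and stress genes 10 fell (45.5%) and 2 rose (9.09%), with a median of -0.39. Btg2, an antiproliferative factor, fell by 0.94 ± 0.13 and Dnajb1, a heat shock cochaperone, rose by 0.96 ± 0.13.

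Chromosome X is silenced in spermatocytes and partly reactivated in spermatids. Without a minimum fold, a smaller share of X-linked than of autosomal genes rose and a larger share fell. Of 739 X-linked genes 76 rose, 10.3%, and 226 fell, 30.6%, with a median of -0.26. Of 19100 autosomal genes 13.4% rose and 19.7% fell, with a median of -0.16. The X-linked median was -0.25, -0.16 and -0.24 in the 24-day arrays and 0.00, -0.01 and 0.00 in the 16-day arrays. At least 2-fold, 51 of 739 X-linked and 1014 of 19100 autosomal genes rose, a larger share on chromosome X. The second change was above the first in 42 X-linked and 565 autosomal genes, again a larger share on chromosome X. These differences were not tested. At least 4-fold, 12 of 739 X-linked genes rose, near the share of autosomal genes, 334 of 19100, and the 1.75% of all genes. Besides Akap4, these 12 included the claudin-domain gene Cldn34b4, which rose by 3.27 ± 0.20, and the acetyltransferase-like Satl1, by 3.23 ± 0.24. Also among the 12 were Tsga8, by 2.89 ± 0.15, and the calyx protein Cylc1, by 2.15 ± 0.20. The genes named here besides Akap4 were picked after their values were seen.

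Compared with the interval before, 611 genes had a second change above the first, 3.06% of all, and 461 one below it, 2.31%. Without replicate 1 of 16 days these counts were 344 and 269, and without replicate 3 of 16 days the first was 391. The second change was above the first in 14 and below it in 4 of 37 acrosome genes, in 15 and 8 of 34 sperm-egg genes, in 11 and 1 of 23 head cytoskeleton genes, in 10 and 0 of 24 ion channel genes and in 7 and 10 of 41 haploid regulators. In spermatid chromatin the second change was above the first in 9 of 27 and below it in 5.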

How the data were processed

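The authors' deposited values are log2 values of 28815 rows of an Affymetrix whole-transcript array, relative to each row's median over 9 arrays, from -6.07 to 6.05. The log base is inferred from that range, and background correction, normalization and summarization are not given in the sources used here. RNA came from QIAzol lysates (miRNeasy columns) and was hybridised as biotinylated cDNA, per the labels' protocols. Blank cells (38964) were taken as 0, since the median of every row was then 0. Rows with 1 gene symbol (21780) were averaged per gene, which left 19935 genes, and 19853 of their gene IDs matched RefSeq (GRCm38.p6), used for chromosomes and promoter windows. The values hold no level and no detection limit, and precision is limited by how many arrays there are.

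The test was limma's (version 3.58.1, R 4.3.3) moderated 2-sided test of the contrast of 24 and 16 days, with lmFit on all 9 arrays (residual degrees of freedom 6) and eBayes (prior 3.82), with Benjamini-Hochberg adjustment over all genes and a threshold of 0.05. The interval difference is (24 minus 16) minus (16 minus 8). The fit was tested on simulated data. The 35 gene lists, the ribosomal protein list taken by symbol, the promoter motifs and the genes named were chosen with earlier results of these data known. Named genes come from the 12 largest rises and falls, up to 5 called members per list and 19 stage genes, and not all are printed; the other genes named were chosen after their values were seen. Replicate numbers were no block, since same-numbered arrays did not deviate together (correlations -0.461 to 0.197). Alternatives were centred arrays, blanks missing, genes with 1 row, 6 arrays, array weights, robust eBayes, a 2-fold minimum, limma treat against 1.5-fold, a replicate block, each array left out and, added after seeing the data, 2 arrays left out and the 6 numbered arrays without the block. Python 3.11.15, pandas 2.3.3 and matplotlib 3.10.9 were used.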

Additional observations from a re-analysis of the deposited data

Results flagged for a closer look

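Some array rows outside the gene-level comparison also differed between 24 and 16 days, in a fit of the same design on all 28815 rows. Of 1605 rows that carry several gene symbols 261 were higher at 24 days (16.3%) and 179 lower (11.2%), against 13.2% and 20.1% of genes. Of these rows 127 rose at least 4-fold, with a largest change of 4.63. Of 5430 rows that carry no symbol 259 were higher (4.77%) and 527 lower (9.71%), both smaller shares than among genes. Among them 44 rose at least 4-fold, with a largest change of 5.80, above the 5.57 of the leading named gene. These rows were not assigned to genes.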

How the results depend on the processing

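Of the 131 named genes that passed the test, 96 passed it in all alternative fits without a minimum fold. In these fits 6 lost the call in one other than those on the 6 numbered arrays. The 2-fold minimum and limma treat were not checked gene by gene, and named genes that changed less than 2-fold do not pass the 2-fold minimum. No label says that the replicate numbers pair the arrays. A fit with the replicate block on the 6 numbered arrays gave 1198 genes higher and 96 lower, 360 with the second interval above the first and 190 below. It gave 11 spermatid chromatin genes higher, and 3 undifferentiated spermatogonial, 0 Sertoli and 1 matrix gene lower. The same arrays with no block gave 1286, 290, 329 and 175 genes. With at least 2-fold, 1072 genes were higher and 29 lower, with 10 chromatin genes higher and 0 spermatogonial, 0 Sertoli and 1 matrix gene lower. With limma treat against 1.5-fold, 792 genes were higher and 1 lower, with 10 chromatin, 21 acrosome, 17 sperm-egg and 30 axoneme genes higher and 0 spermatogonial, 0 Sertoli and 0 matrix genes lower. Genes lower numbered 1927 with centred arrays and 2422 with blank cells left missing. Sertoli genes lower numbered 10 with centred arrays, 27 with array weights and 28 without the 2 arrays that stood apart in olfactory receptors, and matrix genes lower 17 with blank cells left missing. Leaving out 1 array at a time gave 1997 to 2874 genes higher, 1672 to 5196 lower, 344 to 625 with the second interval above the first and 269 to 458 below. It gave 14 to 17 chromatin, 30 to 34 acrosome, 27 to 28 sperm-egg, 28 sheath and fibre and 55 to 60 axoneme genes higher, and 13 to 19 spermatogonial, 8 to 24 Sertoli and 16 to 29 matrix genes lower. The cause was not tested, other than that fewer arrays entered some fits and a minimum fold removes small changes. The values carry no signal over background, so detection could not be weighed.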
